A study of Homo sapiens with 6 samples.

Results

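The MYC family and MAX network was followed in U87 cells with and without knockdown of PRMT6. Its members were chosen by gene symbol and number 10 of the 60612 genes in the deposited table: MYC, MYCN, MYCL, MAX, MXD1, MXD3, MXD4, MXI1, MNT and MLXIP. U87, an established line from a human glioblastoma, was grown in DMEM with 10% serum, and lentivirus carried either a scramble shRNA (NC, 3 libraries) or an shRNA against PRMT6, an arginine methyltransferase (shPRMT6, 3 libraries). The cells of both groups were selected with puromycin, and neither the labels nor the methods name which of the PRMT6 shRNAs was sequenced, so an effect of PRMT6 loss and another effect of that shRNA cannot be told apart. The study sequenced RNA to ask which genes change when PRMT6 is suppressed.

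MYC, MYCN and MYCL are transcription factors of the basic helix-loop-helix leucine zipper class. They bind DNA only as dimers with MAX, prefer the E-box CACGTG, and are known for raising genes of cell growth and ribosome production. MXD1, MXI1, MXD3, MXD4 and MNT compete for MAX at the same sites and recruit the SIN3 histone deacetylase complex, which lowers transcription. MLXIP, also called MondoA, works with MLX instead of MAX and responds to glucose metabolites. In glioblastoma, MYC activity is tied to proliferation and to the stem-like state.

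The E-box is the sequence at which the MYC and MXD dimers with MAX compete. In RefSeq promoter windows of 300 bases (250 before and 50 after each gene start, GRCh38.p14), CACGTG was present in 7.26% of 35116 windows. The motif reads the same on both strands. Per gene, 12.1% of 11804 tested genes with a window held it in at least 1. Of the 9 members with a window, MXD4 and MNT held it, and so did MLX, the partner of MLXIP. The stretches are shown because they place the binding motif of the network in promoters of its own genes, with the E-box in capitals and the strand of the gene given.
MXD4, chr4:2262330-2262359, minus strand: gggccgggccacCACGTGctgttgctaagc
MNT, chr17:2401236-2401265, minus strand: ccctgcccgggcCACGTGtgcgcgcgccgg
MLX, chr17:42567038-42567067, plus strand: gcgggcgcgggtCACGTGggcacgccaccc
The E-box began 238 bases before the start of MXD4, 193 before that of MNT and 50 before that of MLX. The windows of MYCL, MYCN, MXD1, MXD3, MXI1, MLXIP and MAX did not contain these letters, which says nothing of binding outside them.

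The deposited counts summed to 56388161 to 75887696 in NC and to 61805330 to 67630740 in shPRMT6. Values of the libraries of a group are given in the order of replicates 1, 2 and 3. PRMT6, the targeted gene, was at 9.34, 7.97 and 7.19 CPM (counts per 1000000, scaled by library) in the NC libraries and 3.57, 4.58 and 5.24 CPM in the knockdown libraries, a log2 fold change of -0.87 (SE 0.187, adjusted p = 0.0225, edgeR quasi-likelihood test). With NC replicate 1 removed its adjusted p rose to 0.0613, and with shPRMT6 replicate 1 or replicate 2 removed to 0.0588 or 0.0713 (edgeR). PRMT6 stayed called in 8 of 10 other fits. The call ended with the replicate number as a block (adjusted p = 0.0803, edgeR) and on unfiltered log2(FPKM + 1) (adjusted p = 0.0578, limma). Of 8 glioma markers, VIM, CD44, NES and OLIG2 were detected in every library, GFAP and SOX2 lay under 1 CPM, S100B had no counts, and CHI3L1 was called, at 3.97, 3.84 and 2.71 CPM in the NC libraries and 9.63, 10.6 and 12.3 CPM in the knockdown libraries (log2 fold change 1.62, adjusted p = 0.00294, edgeR). Of 10 markers of immune, endothelial, epithelial, neuronal and oligodendrocyte cells, 8 were tested and 1 was called, the epithelial keratin KRT8 (log2 fold change -1.23, adjusted p = 0.0295, edgeR), which kept its call with 1 library removed only in the fit without shPRMT6 replicate 1. Their summed level was 166.4 to 277.4 CPM in NC and 160.7 to 332.8 CPM in shPRMT6, most of it CD68, while MOG had no counts and PTPRC at most 4 per library. All libraries came from the cultured U87 line, so these values do not show that such cells were present. Whether other cells had a part in the results was not tested. CDKN2A and CDKN2B, deleted in U87, had at most 2 and 4 counts per library. The share of counts from mitochondrial genes was 7.06% to 7.85% in the NC libraries and 9.69% to 10.2% in the knockdown libraries, and the part of this difference in the results was not tested.

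Of the 10 members, 9 passed the filter on low counts, and 2 of these passed an adjusted p of 0.05: MXD1 was higher and MXI1 was lower in shPRMT6. Both encode MAX-binding repressors, so the calls ran in opposite directions within one arm of the network. Among all 18106 genes tested, 18.6% passed that threshold (9.51% higher and 9.06% lower), so the share of members called was near the background. MYC, MAX, MNT, MLXIP, MXD3, MXD4 and MYCL did not pass. The median log2 fold change of the 9 members was -0.07, beside -0.01 for all genes tested. At the threshold stated in the methods of the study, an absolute log2 fold change above 1 with an unadjusted p under 0.05, MXD1 alone was past it, where 5.92% of all genes were. In bulk RNA, a change per cell and a change in the mix of cells cannot be told apart.

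**Figure D1:**
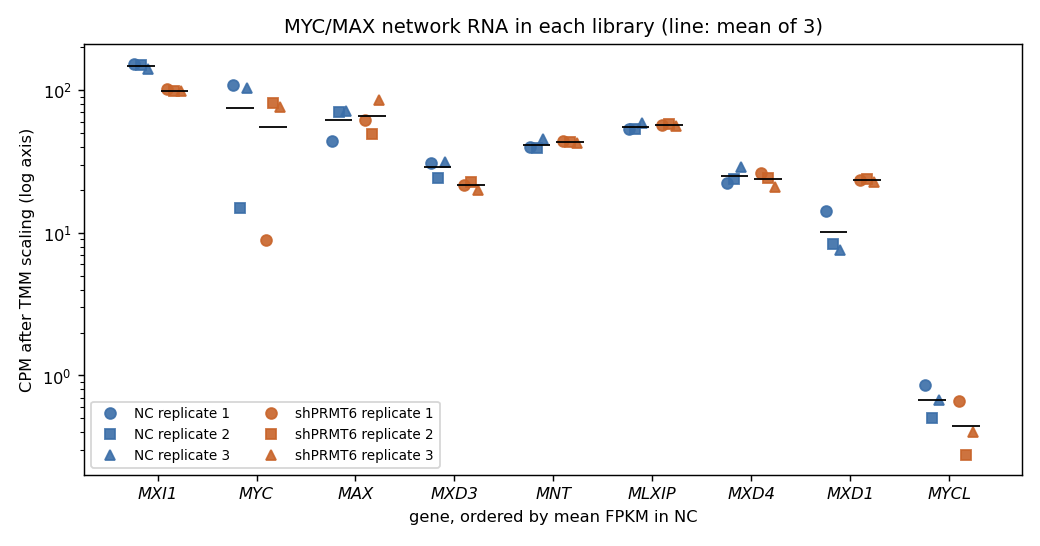
CPM (TMM-scaled, log axis) of the 9 detected members in each of the 3 NC (blue) and 3 shPRMT6 (orange) libraries, with a line at each group mean. MXI1, MXD1 and MXD3 separate the groups, as do 40.2% of all genes tested, while MYC is low in 1 library of each group (14.8 and 8.84 CPM).

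On the FPKM scale, which accounts for transcript length and allows levels of different genes to be compared, MXI1 was the most abundant member in NC at 21.1 ± 0.764 FPKM (SD, n = 3). MYC followed at 13.9 ± 9.66 FPKM and MAX at 8.31 ± 2.16 FPKM, and the libraries of MYC and MAX overlapped while no MYC library reached the lowest MXI1 library. MXD3 (4.71 ± 0.655 FPKM), MNT (4.01 ± 0.341 FPKM), MLXIP (3.36 ± 0.235 FPKM) and MXD4 (3.07 ± 0.455 FPKM) came next. The libraries of MXD3 and MNT overlapped, as did those of MLXIP and MXD4, whereas every MNT library was above every MLXIP library. MXD1 was lower, at 1.33 ± 0.470 FPKM, and MYCL was near the limit of detection at 0.110 ± 0.0283 FPKM. MYCN had no counts in any library.

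MYC (ENSG00000136997, chromosome 8, 127735434 to 127741434, plus strand, GRCh38) encodes the broadly expressed activator of the family. Its CPM was 108.9, 14.8 and 102.9 in the NC libraries and 8.84, 81.4 and 76.5 in the knockdown libraries. NC replicate 2 and shPRMT6 replicate 1 were far below the others, and the groups overlapped. The fold between the highest and lowest library was 7.35 in NC and 9.21 in shPRMT6. These gaps are much larger than the difference between the group means, 75.6 ± 52.7 CPM in NC and 55.6 ± 40.6 CPM in shPRMT6 (SD, n = 3). For MYC the log2 fold change was -0.44 (95% interval -2.68 to 1.80, SE 0.936, adjusted p = 0.791, edgeR quasi-likelihood test), and the two-sided exact permutation p was 0.5. Leaving out shPRMT6 replicate 1 turned the direction to 0.07, and without NC replicate 2 the log2 fold change was -0.93, neither past the threshold. The interval leaves room for more than a doubling or a halving, so a change of MYC RNA of that size was not detectable in these libraries.

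Such a spread was rare among genes of this abundance. Of 5729 tested genes with a mean of at least 32 CPM, 33 differed by more than 4-fold between the highest and lowest NC library, 44 did so in shPRMT6, and 11 did so in both, MYC among them. The median fold was 1.16 in NC and 1.09 in shPRMT6. Of the other 10 genes, SLC25A43 and STBD1 (picked out after their values were seen) were also lowest in shPRMT6 replicate 1 and NC replicate 2. SLC25A43 had 11.3 CPM in NC replicate 2 and 12.9 CPM in shPRMT6 replicate 1, and 48.2 to 62.0 CPM in the remaining libraries. STBD1 had 6.61 CPM in NC replicate 2 and 11.1 CPM in shPRMT6 replicate 1, and 43.5 to 55.6 CPM elsewhere. None of the rest shared this pair of lowest libraries. ADNP, for example, was lowest in NC replicate 3 and shPRMT6 replicate 2, and NFE2L2 in NC replicate 2 and shPRMT6 replicate 2. A link of any of these genes to MYC was not tested.

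**Figure D2:**
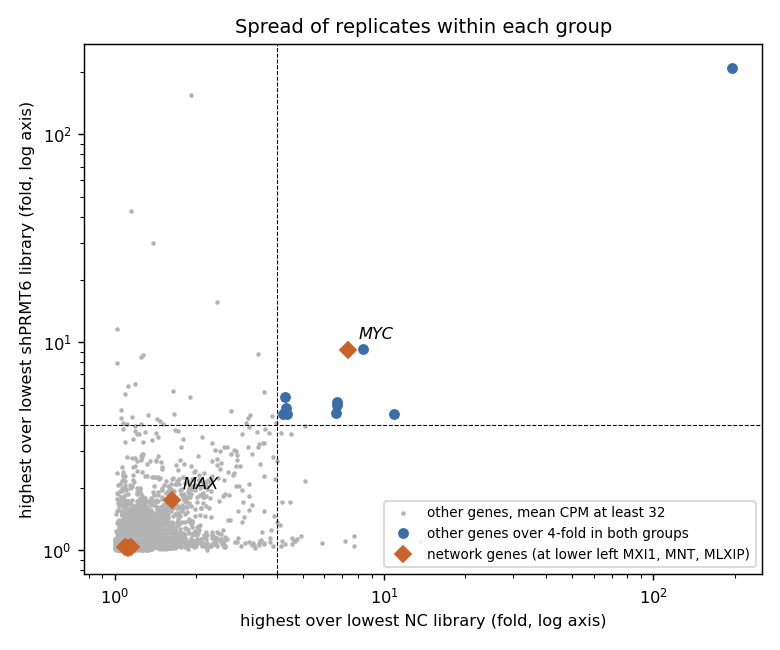
Fold between the highest and lowest library within NC (x, log axis) and within shPRMT6 (y, log axis) for 5729 genes with a mean of at least 32 CPM; dashed lines mark 4-fold. MYC lies at 7.35 and 9.21, while MAX lies at 1.63 and 1.75 and MXI1, MNT and MLXIP lie near 1.

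The summed level of the genes around MYC did not follow that of MYC. The 24 other annotated genes within 1000000 bases of MYC had a summed level of 24.3, 23.9 and 36.3 CPM in the NC libraries and of 28.0, 23.7 and 20.1 CPM in the knockdown libraries. PVT1, the long noncoding RNA gene beside MYC, made up most of it, at 18.2, 19.9 and 28.5 CPM in the NC libraries and 17.9, 13.8 and 17.4 CPM in the knockdown libraries. PVT1 was lower in each shPRMT6 library than in any NC library, by a narrow margin (17.94 against 18.17 CPM) and as for 40.2% of all genes whose groups do not overlap in either direction, and did not pass the threshold (log2 fold change -0.44, SE 0.198, adjusted p = 0.181, edgeR). CASC11, another noncoding gene there, had 12 counts in shPRMT6 replicate 1 and 0 to 4 in the rest. The FPKM of MYC was low in the same libraries, at 2.71 in NC replicate 2 and 1.63 in shPRMT6 replicate 1 against 14.2 to 19.8 in the other 4. It was 0.182 to 0.186 times the CPM in all 6, so it is a scaling of the same reads and not a second measurement. No annotated gene overlaps the exons of MYC in GENCODE 29.

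The genes whose log2 CPM followed MYC most closely over the 6 libraries, among 10050 genes whose average log2 CPM was 3 or more, were STRAP (Pearson r 0.98), SLC25A29 (0.97) and RBM23 (0.97). None of these passed the test between groups (adjusted p from 0.648 to 0.811, edgeR). These values describe 6 libraries, in log2 CPM already scaled for library depth, and no test was made of them. They are the highest of 10050 correlations over 6 points, so values this high can arise without any link to MYC.

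MYCL (ENSG00000116990, chromosome 1, 39895426 to 39902256, minus strand), the family member first known from lung cancer, had 48, 38 and 42 counts in the NC libraries and 42, 17 and 27 in the knockdown libraries. The groups overlapped at this depth (log2 fold change -0.60, 95% interval -1.65 to 0.45, adjusted p = 0.400, edgeR). MYCN (ENSG00000134323, chromosome 2, 15940564 to 15947007, plus strand), which drives neuroblastoma, had 0 counts in all 6 libraries, which allows up to 3 counts or 0.0394 to 0.0536 CPM per library, a limit for counting error only. Its noncoding neighbours MYCNOS and MYCNUT also had 0 counts.

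MAX (ENSG00000125952, chromosome 14, 65006174 to 65102695, minus strand), the shared partner, was at 43.8, 70.0 and 71.6 CPM in the NC libraries and at 62.0, 49.0 and 85.8 CPM in the knockdown libraries. The groups overlapped, and the highest library was 1.63-fold above the lowest in NC and 1.75-fold in shPRMT6. The log2 fold change was 0.09 (95% interval -0.53 to 0.70, adjusted p = 0.857, edgeR), and it turned to -0.11 without NC replicate 1 and to -0.15 without shPRMT6 replicate 3. MAX was lowest in NC replicate 1 and in shPRMT6 replicate 2, not in the libraries where MYC was lowest.

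MXI1 (ENSG00000119950, chromosome 10, 110207605 to 110287365, plus strand), a MAX-binding repressor also called MXD2, was at 153.6, 150.3 and 140.6 CPM in the NC libraries and at 101.4, 98.0 and 98.2 CPM in the knockdown libraries. Every shPRMT6 library was below every NC library, where 40.2% of all genes tested had groups that did not overlap in either direction. The level fell from 148.2 ± 6.74 to 99.2 ± 1.91 CPM (SD, n = 3), or to 0.669 of NC. On the log2 scale the change was -0.58 (SE 0.0589, 95% interval -0.72 to -0.44, adjusted p = 0.00194, edgeR quasi-likelihood test). It stayed past the threshold in all 6 fits that left out 1 library and in all 10 other fits. The exact permutation p was 0.1, the smallest that 3 against 3 libraries allow. Of its exonic bases, 4.45% are shared with an antisense gene, AL360182.2.

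MXD1 (ENSG00000059728, chromosome 2, 69897688 to 69942945, plus strand), the repressor known for its rise during differentiation and once called MAD1, was at 14.3, 8.38 and 7.59 CPM in the NC libraries. It was at 23.5, 24.0 and 22.9 CPM in the knockdown libraries. Every shPRMT6 library was above every NC library, and NC replicate 1 was the nearest to them. The groups of 40.2% of all genes tested did not overlap in either direction. The level rose from 10.1 ± 3.67 to 23.5 ± 0.575 CPM (SD, n = 3), which is 2.33-fold on the fitted scale. The log2 fold change was 1.22 (SE 0.242, 95% interval 0.64 to 1.80, adjusted p = 0.0173, edgeR quasi-likelihood test), with an exact permutation p of 0.1. The call ended without NC replicate 3 (1.05, adjusted p = 0.0504) and without shPRMT6 replicate 1 (1.22, 0.0546), replicate 2 (1.20, 0.0587) or replicate 3 (1.24, 0.0536), all from edgeR. The same-strand gene SNRNP27 shares 3.73% of the exonic bases of MXD1.

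**Figure D3:**
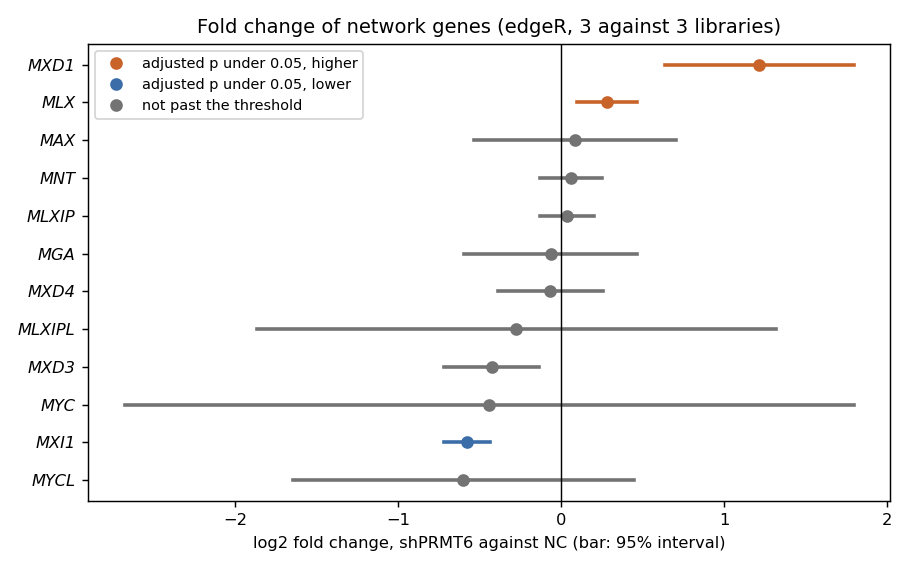
Log2 fold change of 12 network genes in shPRMT6 against NC (x), with 95% intervals from edgeR and colour for the call. MXD1 and MLX lie above 0 and MXI1 below 0 past the threshold, and the bar of MYC spans -2.68 to 1.80.

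MXD3 (ENSG00000213347, chromosome 5, 177301461 to 177312757, minus strand), the family member linked to proliferating cells, was at 30.7, 24.3 and 31.6 CPM in the NC libraries and at 21.8, 22.6 and 20.1 CPM in the knockdown libraries. The groups did not overlap, as for 40.2% of all genes tested. The log2 fold change of -0.43 (SE 0.122) did not pass the threshold in edgeR (adjusted p = 0.0564) and passed it in DESeq2 (adjusted p = 0.00393, where 32% of genes passed) and in edgeR without NC replicate 2 (-0.54, adjusted p = 0.0169). Its exons share 22.5% of their bases with PRELID1 on the opposite strand and 17.97% with RAB24 on the same strand, so its counts are uncertain.

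MXD4 (ENSG00000123933, chromosome 4, 2247432 to 2262294, minus strand) is the fourth MXD repressor. It was at 22.4, 23.8 and 28.95 CPM in the NC libraries and at 26.3, 24.4 and 21.01 CPM in the knockdown libraries, with full overlap of the groups. Its log2 fold change was -0.07 (95% interval -0.39 to 0.26, adjusted p = 0.782, edgeR), and it turned to 0.05 without NC replicate 3 and to 0.02 without shPRMT6 replicate 3. MNT (ENSG00000070444, chromosome 17, 2384060 to 2401118, minus strand), the most widely expressed antagonist of MYC, was at 40.1, 39.3 and 45.1 CPM in the NC libraries and at 44.1, 43.2 and 42.5 CPM in the knockdown libraries. Its log2 fold change was 0.06 with a narrow 95% interval of -0.13 to 0.25 (adjusted p = 0.656, edgeR). An antisense gene, AC006435.1, overlaps 12.2% of its exonic bases.

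Summed over MXD1, MXD3, MXD4, MXI1 and MNT, the FPKM of the MAX-binding repressors was 35.0, 33.2 and 34.4 in the NC libraries and 28.7, 28.1 and 27.2 in the knockdown libraries. Each shPRMT6 library was below each NC library, where single genes had groups that did not overlap in either direction in 40.2% of all genes tested. MGA was left out of the sum. MXI1 supplied 61.7 ± 2.87% of that sum in NC and 50.8 ± 1.02% in shPRMT6 (SD, n = 3), and MXD1 supplied 3.87 ± 1.29% and 11.2 ± 0.241%. The sum therefore fell with its largest member while its composition moved toward MXD1. This is a description of values already given, since the sum is made of the genes tested singly.

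**Figure D4:**
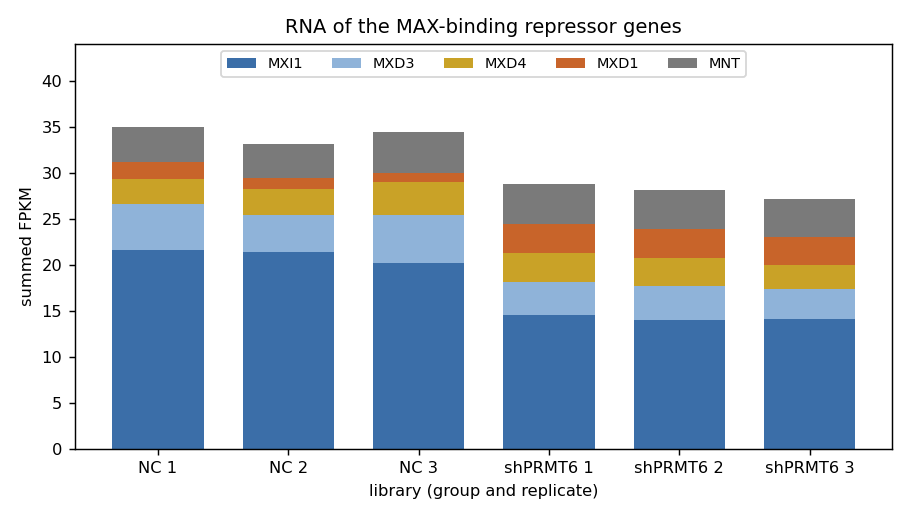
Stacked FPKM of MXI1, MXD3, MXD4, MXD1 and MNT in each library. The bars reach 33.2 to 35.0 in NC and 27.2 to 28.7 in shPRMT6, the MXI1 part is smaller and the MXD1 part larger in each shPRMT6 library.

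The MLX arm of the network was followed through MLXIP and 3 further genes. MLXIP (ENSG00000175727, chromosome 12, 122078722 to 122147347, plus strand) was at 53.1, 53.8 and 59.2 CPM in the NC libraries and at 56.9, 57.5 and 55.9 CPM in the knockdown libraries. Its log2 fold change was 0.04 (95% interval -0.13 to 0.20, adjusted p = 0.765, edgeR). MLX, its partner, was at 97.5, 86.0 and 84.2 CPM in the NC libraries and at 112.5, 103.9 and 108.5 CPM in the knockdown libraries. MLX rose by a log2 fold change of 0.28 (SE 0.0767, adjusted p = 0.0492, edgeR). With 1 library removed, that call held in the fit without NC replicate 1 and ended with the adjusted p at 0.102, 0.143, 0.150, 0.102 and 0.1298 without NC replicates 2 and 3 and shPRMT6 replicates 1, 2 and 3. It held in 6 of 10 other fits. PSMC3IP on the opposite strand overlaps 18.1% of the exonic bases of MLX. MLXIPL, a separate gene on chromosome 7 and a paralog of MLXIP, is also called ChREBP and had 6 to 20 counts per library. Neither MLXIPL nor MGA, a large MAX-binding repressor, passed (log2 fold changes -0.28 and -0.07, adjusted p = 0.820 and 0.873, edgeR).

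TXNIP and ARRDC4, arrestin-family genes that MLXIP and MLX activate, did not pass the edgeR threshold. In both, the groups did not overlap, as in 40.2% of all genes tested, and for TXNIP the nearest libraries were 532.1 and 532.8 CPM. TXNIP was at 542.1 ± 15.4 CPM in NC and 504.0 ± 24.4 CPM in shPRMT6 (SD, 3 libraries each; log2 fold change -0.11, adjusted p = 0.247, edgeR). ARRDC4 was at 27.3 ± 2.83 and 21.3 ± 1.45 CPM (log2 fold change -0.36, adjusted p = 0.0656, edgeR), and passed in DESeq2 (adjusted p = 0.00571) and in edgeR without NC replicate 1 (-0.44, adjusted p = 0.0396). PKLR, a ChREBP target of liver, had 4 counts in 1 library and 0 in the others.

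A list of 16 coactivator genes, all tested, also held other MYC-binding proteins such as ZBTB17 (MIZ1) and MYCBP2. Of the 16, 8 were lower and 0 higher at an adjusted p under 0.05 in edgeR. A negative log2 fold change was found in 14 of the 16, and the median was -0.29. Among all genes tested, 9.06% were lower and 9.51% higher, with a median of -0.01. KAT5, the acetyltransferase TIP60, fell from 35.6 ± 2.65 to 24.8 ± 1.24 CPM (SD, 3 libraries each; log2 fold change -0.52). RUVBL2, an ATPase of the same complex, fell by 0.49 on the log2 scale, ACTL6A, its actin-related subunit, by 0.46, and MYCBP, a MYC-binding protein, by 0.43. TRRAP, HCFC1 and WDR5 were also called. With NC replicate 3 removed the count was 5, and with knockdown replicates 1, 2 and 3 removed in turn it was 4, 3 and 5. MYCBP lost its call when any of these knockdown libraries was removed (adjusted p from 0.0636 to 0.0710, edgeR), while KAT5, RUVBL2 and ACTL6A stayed called with each of the 6 libraries removed.

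The SIN3 complex, which MXD proteins and MNT recruit, was followed through a list of 14 corepressor genes, all tested. The list also held NCOR1, of another corepressor complex, which was not called. Of the 14 genes, 3 were lower and 1 higher, which is 28.6% called beside 18.6% of all genes, with a median log2 fold change of -0.14. SAP30 fell from 63.8 ± 0.481 to 45.4 ± 3.01 CPM (SD, 3 libraries each; log2 fold change -0.49, adjusted p = 0.00614, edgeR). SIN3A, the scaffold, was called at -0.36 and the deacetylase HDAC2 at -0.24, whereas HDAC1, its paralog, was called at 0.22. SIN3A lost its call without NC replicate 3 (adjusted p = 0.0616) and HDAC2 without NC replicate 1 (adjusted p = 0.0548), and both lost it without any of the knockdown libraries (edgeR). The count of lower genes was 1 without shPRMT6 replicate 1, 2 or 3, and HDAC1 lost its call without each of the 6 libraries (adjusted p from 0.0547 to 0.131, edgeR).

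Genes that act on the stability of MYC protein included the largest fall among the cofactor lists, that of PIM1. Of 21 genes, all tested, 7 were lower and 1 higher, which is 38.1% called beside 18.6% of all genes (9.06% lower), with a median log2 fold change of -0.08. PIM1, a kinase that phosphorylates and stabilizes MYC, fell from 18.6 ± 1.80 to 8.67 ± 0.698 CPM (SD, 3 libraries each; log2 fold change -1.10, SE 0.117, adjusted p = 0.00216, edgeR). PLK1 fell by 0.89 on the log2 scale, CIP2A, which inhibits the PP2A phosphatase acting on MYC, by 0.72, and AURKA by 0.60. PLK1 and AURKA are also mitotic kinases, and the 4 calls held in all 6 fits that left out 1 library. GSK3B, whose phosphorylation marks MYC for degradation, was called higher at 0.30 (adjusted p = 0.0454, edgeR) and kept its call in 1 of those fits, the one without NC replicate 2. FBXW7, the ubiquitin ligase subunit that reads that mark, was not called (log2 fold change -0.04, adjusted p = 0.819, edgeR). Also called lower were PIM3 (-0.44), SET (-0.35) and, near the threshold, PPP2CA (-0.21, adjusted p = 0.04755, edgeR). PPP2CA encodes the catalytic subunit of PP2A, so RNA of CIP2A and of the phosphatase it inhibits were both lower.

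**Figure D5:**
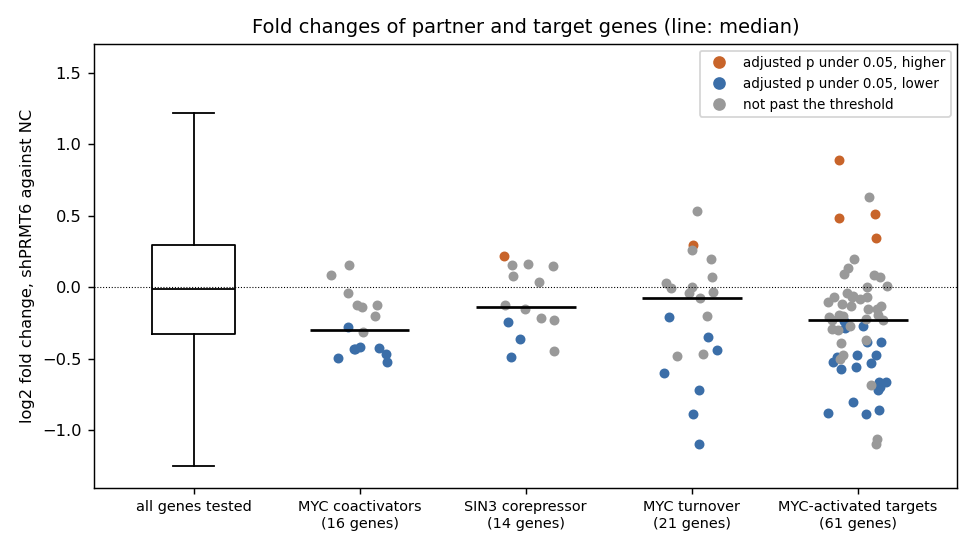
Log2 fold change in shPRMT6 against NC of genes that act with, on or downstream of MYC (points, coloured by call, line at the median), beside a box of all 18106 genes tested (quartiles, whiskers to 1.5 interquartile ranges). The medians are -0.29, -0.14, -0.08 and -0.23 from left to right, beside -0.01 for all genes.

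Of 61 genes known to be activated by MYC, all tested, 20 were lower and 4 higher in shPRMT6, and 37 did not pass. That is 39.3% called, beside 18.6% of all genes (9.06% lower and 9.51% higher). The targets had a median log2 fold change of -0.23 (quartiles -0.50 and -0.06). The list consists largely of genes for ribosome assembly, nucleotide supply and DNA replication. NOC4L, a factor of small-subunit assembly, fell from 17.1 ± 2.46 to 9.26 ± 0.472 CPM (SD, 3 libraries each; log2 fold change -0.89, adjusted p = 0.00652, edgeR). TMEM97, a sterol-regulated membrane protein, fell by 0.80 on the log2 scale. The mitochondrial chaperonin gene HSPE1 fell by 0.88 and the nucleotide pyrophosphatase gene DCTPP1 by 0.86, and each stayed called with 1 library removed in just 1 of 6 fits (HSPE1 without NC replicate 2, DCTPP1 without shPRMT6 replicate 2). NOLC1, a nucleolar assembly factor, went the other way, from 67.8 ± 3.72 to 125.6 ± 5.02 CPM (log2 fold change 0.89, adjusted p = 0.000880, edgeR), as did MPHOSPH10 (0.51), SUPV3L1 (0.48) and POLR1B (0.35). POLR1B lost its call without NC replicate 3 or any knockdown library (adjusted p from 0.0824 to 0.0975, edgeR). The count of lower genes was 12 with NC replicate 3 or shPRMT6 replicate 1 removed, 13 with shPRMT6 replicate 2 removed, and 32 with DESeq2.

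Among these targets, 50 had a RefSeq promoter window and 26 of them (52%) contained CACGTG, beside 12.1% of 11804 tested genes with a window. Of the 26 with the motif, 10 were lower and 0 higher, with a median log2 fold change of -0.27. Of the 24 without it, 6 were lower and 2 higher, with a median of -0.19. In the whole list of 61 targets, 20 were lower and 4 higher, with a median of -0.23. For comparison, 9.06% of all genes tested were lower and 9.51% higher, with a median of -0.01. The difference between the sets with and without the motif was not tested. The stretch around the E-box is shown for 4 of the 10 lower targets that hold it, to place the motif in genes whose values are given.
HSPE1, chr2:197500345-197500374, plus strand: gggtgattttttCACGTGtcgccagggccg
DCTPP1, chr16:30429801-30429821, minus strand: ggagggttcctcCACGTGgtc
EXOSC5, chr19:41397431-41397460, minus strand: taaacgctaagcCACGTGcggacgcccagg
AIMP2, chr7:6009478-6009507, plus strand: ccgggcgctggcCACGTGcaggtaggagcg
The motif began 22 bases before the start of HSPE1, 9 before that of DCTPP1, 89 before that of EXOSC5 and 75 before that of AIMP2. EXOSC5, an RNA exosome subunit, and AIMP2, of the aminoacyl-tRNA synthetase complex, were lower by 0.70 and 0.52 on the log2 scale.

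Of 7 genes listed as repressed by MYC, 5 were tested, and 3 of these were lower and 0 higher. Among all genes tested, 9.06% were lower and 9.51% higher. CDKN1A, which encodes the kinase inhibitor p21, fell from 420.9 ± 45.0 to 260.3 ± 8.43 CPM (SD, 3 libraries each; log2 fold change -0.69, adjusted p = 0.00364, edgeR). NDRG1, a stress response gene, fell from 3805 ± 163.9 to 2846 ± 20.9 CPM (log2 fold change -0.42, adjusted p = 0.00246, edgeR), and GADD45A, a DNA damage gene, by 0.57 on the log2 scale. CDKN1A and NDRG1 were called in all 6 fits that left out 1 library, while GADD45A was not without shPRMT6 replicate 1 (-0.49, adjusted p = 0.0776) or shPRMT6 replicate 3 (-0.58, adjusted p = 0.0732), from edgeR. NDRG2 (log2 fold change -0.96, adjusted p = 0.153) and CEBPD (0.12, adjusted p = 0.585) did not pass in edgeR, and CDKN2B and CEBPA were under the filter on low counts.

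The hairpins listed for PRMT6 were also set against the members by their seeds. The 3' UTR site paired with bases 2 to 8 of the antisense strand was AGCATCT for shPRMT6 #2, present in the longest 3' UTR of MAX and MNT and in 15.4% of 13119 tested genes. The site of shPRMT6 #3, GGAGAGA, was present in MXI1 and in 19.4% of those genes, and that of shPRMT6 #1, TGCCTTA, in none of the 10 members and in 15.4% of those genes. Which hairpin was sequenced is not stated, and the part of these sites in the values was not tested.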

How the data were processed

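RNA of 3 NC and 3 shPRMT6 libraries of U87 cells was analysed. The authors deposited 1 table with raw counts per gene, not normalized, and FPKM values scaled by transcript length and library, in which genes without counts are listed at 1e-04. The submitters' processing notes name HISAT2, HTSeq 0.13.5 and GRCh38; annotation release and strand setting are not given in the sources used here, and RNA extraction is given as Trizol in the labels and as a column kit in the methods. Whether a gene and its antisense neighbour were separated is therefore unknown. The methods call the samples independent replicates.

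Counts were tested with edgeR 4.0.16 in R 4.3.3 (quasi-likelihood test, TMM scaling, low-count filter by group, no replicate block), adjusted by Benjamini-Hochberg over all 18106 genes tested; CPM is after TMM scaling and SE is the log2 fold change over the root of F. Alternatives were DESeq2 1.42.0, other scalings and filters, a replicate block, limma 3.58.1 on log2(FPKM + 1) or log2(FPKM + 0.1), the fold threshold of the study, and each library left out. The programs were tested on simulated data. Positions and exon overlaps came from GENCODE 29 (58394 of 60612 identifiers matched), promoters from RefSeq (GRCh38.p14), seeds from the supplementary hairpin list, all with Python 3.11.15. No replicate was a copy of another of its group: the 6 within-group pairs gave a chi-square of 53 to 86.3 for each degree of freedom. Every member was named. Of longer lists, up to 4 called genes per direction by size were named, and of lists of up to 8 genes all. TRRAP, HCFC1, WDR5, EXOSC5, AIMP2, FBXW7, PPP2CA, SET, PIM3, ZBTB17, MYCBP2 and NCOR1 were chosen after their values were seen. The members and lists were chosen with earlier results of these data known, so list counts are descriptions.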

Additional observations from a re-analysis of the deposited data

How the results depend on the processing

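MXI1, MNT, MLXIP and MYCL kept their direction and their side of an adjusted p of 0.05 in all fits that gave them a value. With DESeq2, MXD3 passed (-0.42), 2 members, 5 SIN3 genes and 32 activated targets were called lower, and over all genes 2940 were higher and 2842 lower. With the fold threshold of the study, the counts were 0 members, 0 coactivators, 0 SIN3 genes, 1 turnover gene and 1 activated target lower, 0 SIN3, 0 turnover and 0 target genes higher, and 596 higher and 476 lower over all genes. At least 1 count in any library gave 0 SIN3 and 0 turnover genes higher, and 0 turnover genes were higher without scaling factors or with limma on unfiltered log2(FPKM + 1). With the replicate block, 3 coactivators, 1 SIN3 gene and 13 targets were lower, 0 SIN3 and 0 turnover genes higher, and 950 and 908 genes were higher and lower over all. The block changed no call of a member, while PRMT6 lost its call (adjusted p = 0.0803, edgeR) and SOX2 turned to -0.1846. The block was not used because libraries with the same number did not deviate together (correlations -0.022, -0.04 and -0.033), and 0 of the 3 pairs were above 0.1.

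Over the fits without 1 library, log2 fold changes ran from -0.93 to 0.0658 for MYC, -0.15 to 0.26 for MAX, 1.05 to 1.55 for MXD1, -0.54 to -0.36 for MXD3, -0.14 to 0.0495 for MXD4, -0.54 to 0.29 for MLXIPL, -0.7144 to 0.7346 for SOX2 and -0.29 to 0.094 for MGA. Members called ranged from 0 to 1 higher and 1 to 2 lower, coactivators from 3 to 7 lower, SIN3 genes from 0 to 0 higher and 1 to 3 lower, turnover genes from 0 to 1 higher, targets from 12 to 19 lower, and all genes from 898 to 1661 higher and 857 to 1522 lower. Removing a library leaves fewer samples; otherwise the cause was not tested. MYCL had 17 to 48 counts per library and MYCN 0, so small differences in either were not detectable at this depth.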
